A study of Homo sapiens with 18 samples.

Results

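The genes described here are 9 regulators and targets of the SMAD pathway in IMR90 cells, a line of normal human lung fibroblasts: the inhibitors of differentiation ID1, ID2, ID3 and ID4, the receptor-activated SMAD3, the inhibitory SMAD6 and SMAD7, the co-repressor SKIL and the pseudoreceptor BAMBI. They were picked by name, with earlier results of these data known, from the 56269 genes of the deposited table, and all 9 were expressed highly enough to be tested. Ligands of the TGF-beta and BMP families bind receptor kinases that phosphorylate SMAD proteins, which enter the nucleus with SMAD4 and switch genes on or off. Several of the genes switched on in this way act back on the pathway: SMAD6, SMAD7 and BAMBI act at the receptors, and SKIL on the SMAD complex itself. The ID genes are classical BMP targets whose products bind basic helix-loop-helix (bHLH) factors and keep them off DNA, and in fibroblasts the TGF-beta branch is best known for driving matrix production.

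RNA was sequenced from 6 groups of 3 replicates, 18 libraries in all. A pre-incubation of 6 h came first, in PBS, in cNSF-HA or in fNSF-HA, both hyaluronan (HA) preparations at 20 μg/ml. Both came from skin fibroblasts of the naked mole-rat (NSF): fNSF-HA had been partially fragmented with hyaluronidase, and cNSF-HA, the control, had been heated with enzyme that was already inactive and kept its length. In 3 groups the cells were collected at this point, and in the other 3 the pre-incubation medium was removed and 200 μM tert-butyl hydroperoxide (tBHP), an oxidant, was given for 1 h, with collection 6 h after its start. Libraries with and without tBHP therefore also differ in collection time and in the change of medium, and these cannot be told apart from the oxidant. The study's methods call its replicates biological, and the labels do not say which cultures these came from. The p-values measure the spread between these samples.

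The deposited values are normalized counts, reads on a gene divided by the size factor of its library, and the libraries held 20261103 to 26287660 reads on genes. All 9 fibroblast markers examined had a mean of at least 10 normalized counts (summed 485276 to 747588 per library). Among markers of other cell types, only KRT19 (mean 158) and VWF (mean 13) reached that level, and KRT5, SFTPC and CDH5 were at 0 in every library. After tBHP the libraries also differed along the GC content of the transcripts. The tenth of genes highest in GC (1254 genes, median 63.8%) deviated in the median by -0.78 on the log2 scale from the average tBHP library in fNSF-HA replicate 2 and by -0.19 in fNSF-HA replicate 1, against -0.020 to 0.33 in the other 7 libraries. Where a call or direction of the tBHP response of the 9 genes changes with this trend, its value is given below with the trend removed (a smooth curve of GC content and length fitted in each library), and the part of the trend in them was not tested further. The curve was fitted in all 18 libraries. It took up 3.56% to 22.8% of the variance of gene deviations in libraries without tBHP and 3.34% to 41.7% in those with it. Removal therefore also takes out any shift along GC content or length between libraries with and without tBHP. Such a shift cannot be told apart from the response to tBHP.

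Motifs of SMAD factors, of a cAMP-responsive factor, of E-box factors and of the core promoter were searched on both strands of the 250 bases before each RefSeq start site (build GRCh38.p14, 15 windows for the 9 genes). The window of ID4 and the first 244 bases of that of ID1 are shown because they hold both a TATAAA and a CCAAT motif, and parts of the windows of SMAD6 and SKIL because each holds a palindrome that few windows have. Capitals mark the matches, read 5′ to 3′ on the strand of the gene.
ID1, chr20:31605039-31605282, + strand: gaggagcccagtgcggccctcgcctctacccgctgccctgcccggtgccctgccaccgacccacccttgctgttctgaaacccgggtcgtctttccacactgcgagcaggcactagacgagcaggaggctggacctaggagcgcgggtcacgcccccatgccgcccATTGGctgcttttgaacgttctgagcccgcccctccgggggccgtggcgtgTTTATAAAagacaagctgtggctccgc
ID4, chr6:19837120-19837369, + strand: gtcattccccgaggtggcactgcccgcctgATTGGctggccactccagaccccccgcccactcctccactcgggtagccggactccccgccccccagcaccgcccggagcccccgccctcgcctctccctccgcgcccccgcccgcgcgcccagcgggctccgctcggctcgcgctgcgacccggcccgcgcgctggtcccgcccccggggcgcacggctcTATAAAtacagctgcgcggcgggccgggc
SMAD6, chr15:66702176-66702235, + strand: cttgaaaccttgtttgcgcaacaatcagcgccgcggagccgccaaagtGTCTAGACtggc
SKIL, chr3:170357625-170357677, + strand: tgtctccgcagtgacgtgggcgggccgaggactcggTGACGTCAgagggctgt
In ID1 and ID4 the capitals ATTGG are CCAAT on the opposite strand. Those after them are TATAAA, which in ID1 overlaps a second match on the opposite strand. TATAAA occurred in 10.8% and CCAAT in 32% of the 34788 windows of that length. GTCTAGAC, the palindrome bound by SMAD3 and SMAD4, lay 12 to 5 bases before a start site of SMAD6 and occurred in 0.178% of windows. TGACGTCA, the full cAMP response element, lay 54 to 47 bases before the start site of SKIL and occurred in 1.64%. Among the other motifs searched, GGCGCC, a GC-rich SMAD element, was found in 16.4% of windows. It matched 3 times in the BAMBI window, 2 times in 1 SMAD3 window and 1 time in the SKIL window. The E-box CACGTG, found in 6.31%, matched in another place of the same SMAD3 window. TATAAA also matched in 1 of the 3 SMAD7 windows. CCAAT matched in the BAMBI window, in 1 of the 5 SMAD3 windows and 3 times in the ID2 window. In GENCODE, exons of the gene itself cover 202 of the 250 bases of the ID2 window and 179 of the BAMBI window. They cover all 250 bases of the ID3 window and of another SMAD7 window, and smaller parts of some others. A match describes these letters only.

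Without tBHP, the level per kilobase of exon ran from ID1 (mean 1972 normalized counts per kb over the 9 libraries, range 1835 to 2188) through ID2 (1317, range 1228 to 1369) and ID3 (608, range 537 to 640.2) to SMAD7 (347, range 329 to 362), SMAD3 (319, range 308 to 326), SKIL (316, range 289 to 341) and ID4 (267, range 236 to 287), with SMAD6 (101) and BAMBI (75.5) lowest. The ranges of the 3 leading ID genes did not overlap. SMAD7 lay above SMAD3 in every library, SKIL overlapped both, and ID4 lay below all 3. With tBHP, ID1 stayed highest on this scale (2820, range 1377 to 4023), but ID3 (836, range 441 to 1076) and ID2 (714, range 633 to 805) overlapped. SMAD7 followed (527, range 464 to 588), then SMAD3 (390.0, range 337 to 419) and SKIL (316, range 245 to 493), which overlapped both. ID4 (174), SMAD6 (95.3) and BAMBI (69.4) were lowest, and the last pair overlapped.

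**Figure D1:**
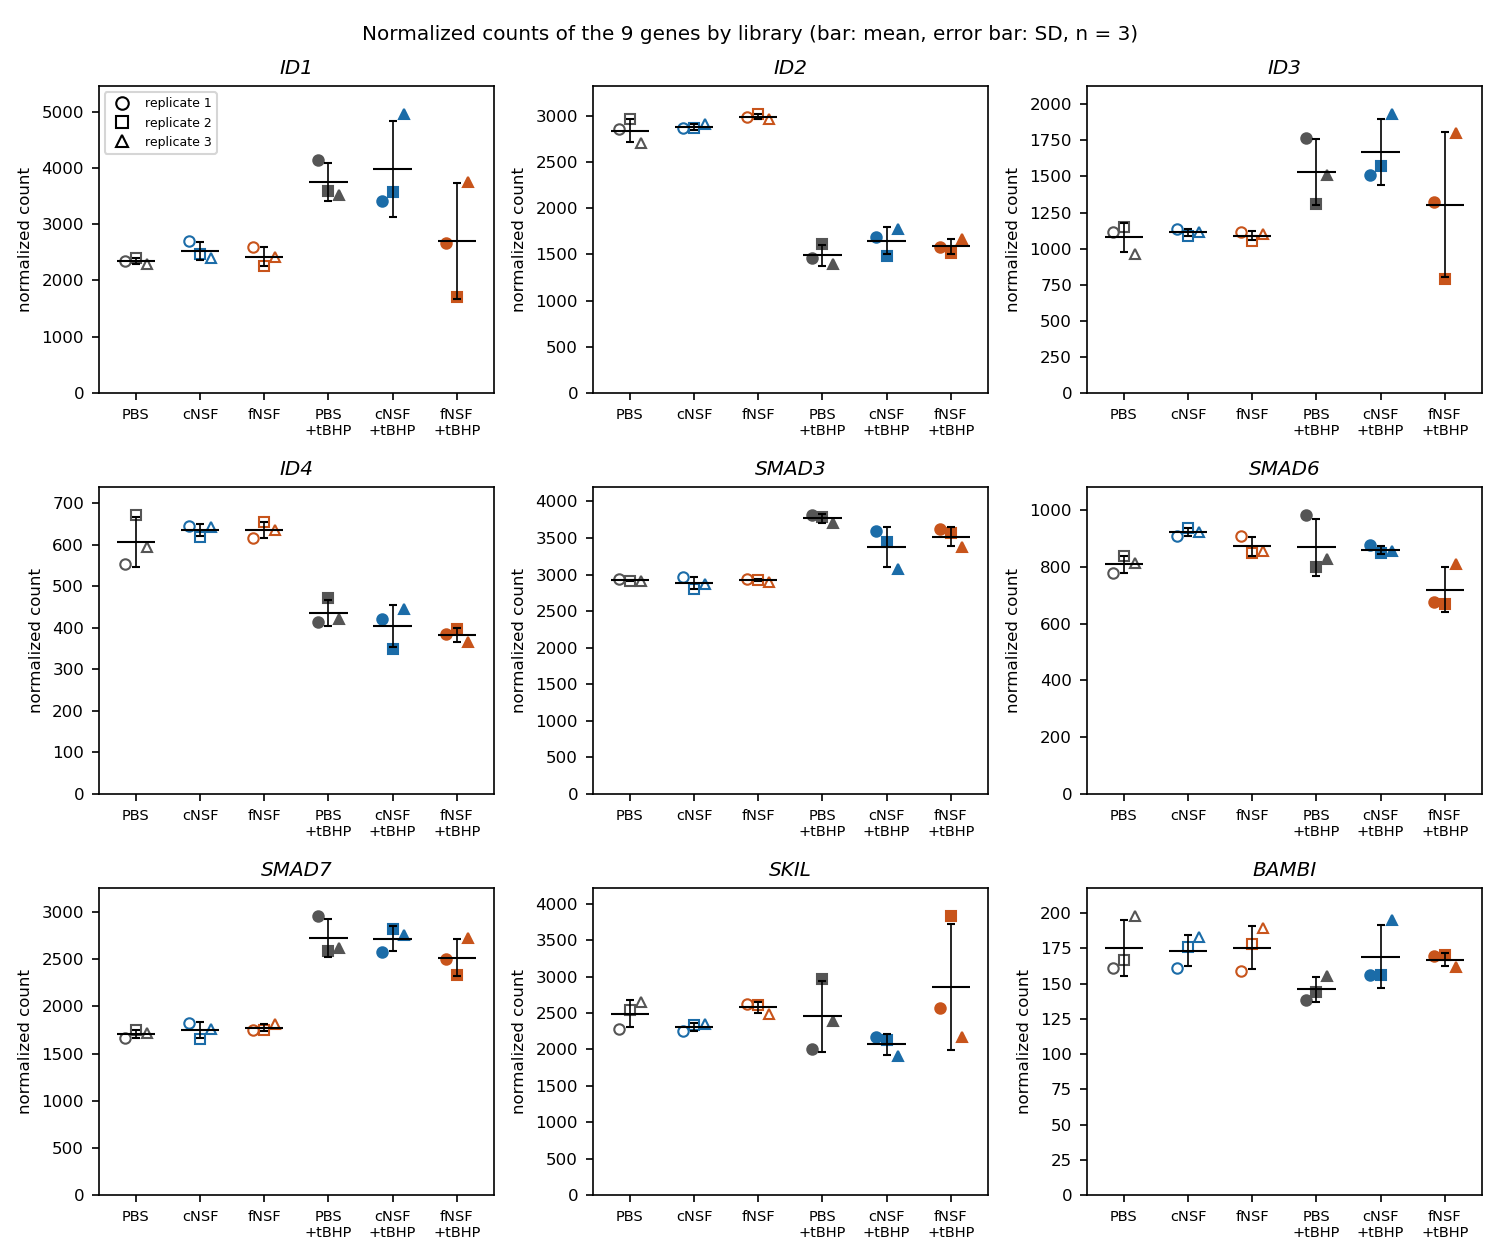
Normalized counts (y axes, from 0) of the 9 genes in the 18 libraries, by group (x axes; open symbols without tBHP, filled with tBHP), with the mean and SD of each group of 3. ID2 and ID4 are lower and SMAD3 and SMAD7 higher in every library with tBHP, while ID1, ID3 and SKIL spread most under fNSF-HA with tBHP.

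The first question is how the 9 genes responded to tBHP. Averaged over the pre-incubations, ID2 and ID4 fell, ID1, ID3, SMAD3 and SMAD7 rose, and SMAD6, SKIL and BAMBI did not pass the test. On the deposited values ID2 lost the most (fold 0.542) and SMAD7 gained the most (fold 1.52). The groups of 9 libraries did not overlap for ID2, ID4, SMAD3 and SMAD7, 4 of the 9, against 27.8% of all genes tested. So 6 of 9 passed, 4 higher and 2 lower, against 67.8% of the 13686 genes tested (32.6% higher, 35.2% lower), and the share among the 9 is close to this background. With the GC and length trend removed, 9 of the 9 passed, 5 higher and 4 lower, against 72.9% of the 12532 genes with a known GC content and length. The 3 that were added are SKIL, which turned to the largest rise of the 9 (0.49 on the log2 scale, against 0.40 for SMAD7), and SMAD6 and BAMBI, which fell. The median log2 change was -0.030 over the 9 genes and -0.0064 over all genes tested. In a bulk culture, less RNA per cell and fewer cells of one kind cannot be told apart.

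ID2 (chr2:8678845-8684453, + strand; coordinates of whole genes are from GENCODE release 29 on GRCh38) restrains differentiation in several lineages. Its normalized counts were 2851, 2959.8 and 2707 under PBS, 2862, 2862 and 2914 under cNSF-HA and 2989.6, 3019 and 2963 under fNSF-HA without tBHP. After tBHP they were 1464, 1613 and 1395 under PBS, 1684, 1486 and 1776 under cNSF-HA and 1575, 1514 and 1669.7 under fNSF-HA. Every library with tBHP lay below every library without it, and without tBHP the fNSF-HA libraries lay just above all PBS and cNSF-HA libraries. With tBHP the pre-incubations overlapped. The change was -0.93 on the log2 scale (SE 0.073; adjusted p = 1.3e-08) under PBS, -0.81 under cNSF-HA (adjusted p = 9.0e-08) and -0.92 under fNSF-HA (adjusted p = 1.9e-08; limma with Benjamini-Hochberg adjustment over all genes tested here and throughout). The exons of ID2 share 38 bases with the antisense gene ID2-AS1, whose reads a kit without strand information cannot separate. ID2-AS1 itself had a mean of 18.2 normalized counts.

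ID4 (chr6:19837386-19840684, + strand), the least abundant ID gene per kb, had 554, 672 and 594 under PBS, 645, 619 and 642 under cNSF-HA and 616, 654 and 634 under fNSF-HA before tBHP. Afterwards it had 414, 473 and 420.2 under PBS, 421, 348 and 444 under cNSF-HA and 384, 398 and 366 under fNSF-HA. Again no library with tBHP reached the lowest library without it. The log2 change was -0.47 under PBS (adjusted p = 4.7e-04), -0.66 under cNSF-HA (adjusted p = 2.1e-05) and -0.73 under fNSF-HA (adjusted p = 7.9e-06).

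ID1 (chr20:31605283-31606515, + strand), a direct BMP target, went the other way. Its counts were 2345, 2395 and 2291 under PBS, 2697, 2473 and 2405 under cNSF-HA and 2593, 2262 and 2419 under fNSF-HA without tBHP. With tBHP they were 4138, 3587 and 3522 under PBS, 3413, 3564 and 4960.4 under cNSF-HA and 2662, 1698 and 3748 under fNSF-HA. All PBS and cNSF-HA libraries with tBHP exceeded every library without it, but fNSF-HA replicate 2 fell below all of them and replicate 1 lay among them. The change was 0.67 on the log2 scale (SE 0.19; adjusted p = 0.0065) under PBS, 0.64 under cNSF-HA (adjusted p = 0.0094) and 0.085 under fNSF-HA (adjusted p = 0.75). Under cNSF-HA it was 0.47 without cNSF-HA replicate 3 with tBHP (adjusted p = 0.067).

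ID3 (chr1:23557918-23559794, - strand), like ID1 a direct BMP target, had 1117, 1151 and 964 under PBS, 1135, 1089 and 1116 under cNSF-HA and 1114, 1054 and 1100.3 under fNSF-HA before tBHP. After tBHP it had 1768, 1312 and 1511 under PBS, 1507, 1573 and 1933 under cNSF-HA and 1324, 792 and 1799.5 under fNSF-HA. The PBS and cNSF-HA libraries with tBHP lay above all libraries without it, and the fNSF-HA libraries ran from below to above them. The log2 change was 0.50 under PBS (adjusted p = 0.038), 0.58 under cNSF-HA (adjusted p = 0.019) and 0.18 under fNSF-HA (adjusted p = 0.48). The calls for ID3 rest on little margin. Under PBS the call was lost when genes of low counts were kept in the test (adjusted p = 0.066). There, leaving out any library but PBS replicate 2 with tBHP ended the call (log2 change 0.39 to 0.55, adjusted p 0.054 to 0.15), and under cNSF-HA leaving out cNSF-HA replicate 2 without tBHP or replicate 3 with tBHP did (adjusted p 0.051 and 0.090).

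The transcripts of ID1 and ID3 are GC-rich, 58.6% and 57.2%, and in fNSF-HA replicate 2 with tBHP their deviations from the average tBHP library were -0.98 and -0.88 on the log2 scale, beside -0.78 for the transcripts highest in GC. ID2 (53.3% GC) deviated there by -0.054, and ID4 (47.0%) by -0.029. SMAD6 (58.9%) and SMAD7 (58.7%), as GC-rich as ID1, deviated there by -0.28 and -0.18, less than ID1 and ID3. After removal of the trend, ID1 and ID3 still deviated by -0.50 and -0.48 in that library. SMAD6 and SMAD7 then turned to 0.13 and 0.23 there, above the average tBHP library. Without that library the response under fNSF-HA was 0.38 for ID1 (adjusted p = 0.022) and 0.50 for ID3 (adjusted p = 0.0026), both then past the threshold. Without fNSF-HA replicate 3 with tBHP instead, the direction turned, to -0.19 and -0.089 (adjusted p = 0.35 and 0.69). With the GC and length trend removed, the response was -0.081 for ID1 and 0.0066 for ID3 (adjusted p = 0.45 and 0.96). The averaged responses then shrank to 0.17 and 0.14 (adjusted p = 0.0047 and 0.044), and that of ID1 was 0.37 under PBS and 0.22 under cNSF-HA (adjusted p = 0.0011 and 0.034). In the same setting the response of ID3 no longer passed under PBS (0.21, adjusted p = 0.083) or cNSF-HA (0.19, adjusted p = 0.12). The averaged changes of ID2 and ID4 were -1.09 and -0.68 in that setting.

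On the deposited values the make-up of the ID family changed. Under fNSF-HA only the falls of ID2 (-0.92 on the log2 scale) and ID4 passed, and the rises of ID1 and ID3 did not. The ratio of ID1 to ID2 normalized counts was 0.749 to 0.943 in the 9 libraries without tBHP and 1.12 to 2.83 in the 9 with it (median 0.825 and 2.24), with no overlap, and its lowest value with tBHP was that of fNSF-HA replicate 2. ID3 to ID2 went from 0.349 to 0.396 up to 0.524 to 1.21, also without overlap. ID1 to ID3 stayed at 2.08 to 2.38 against 2.01 to 2.73. Per kb of exon, ID1 made up 45.1% to 49.8% of the summed ID level without tBHP and 51.5% to 66.0% with it. The share of ID2 was 29.5% to 33.6% and then 12.8% to 25.7%, and that of ID4 5.83% to 6.86% and then 3.11% to 6.35%.

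**Figure D2:**
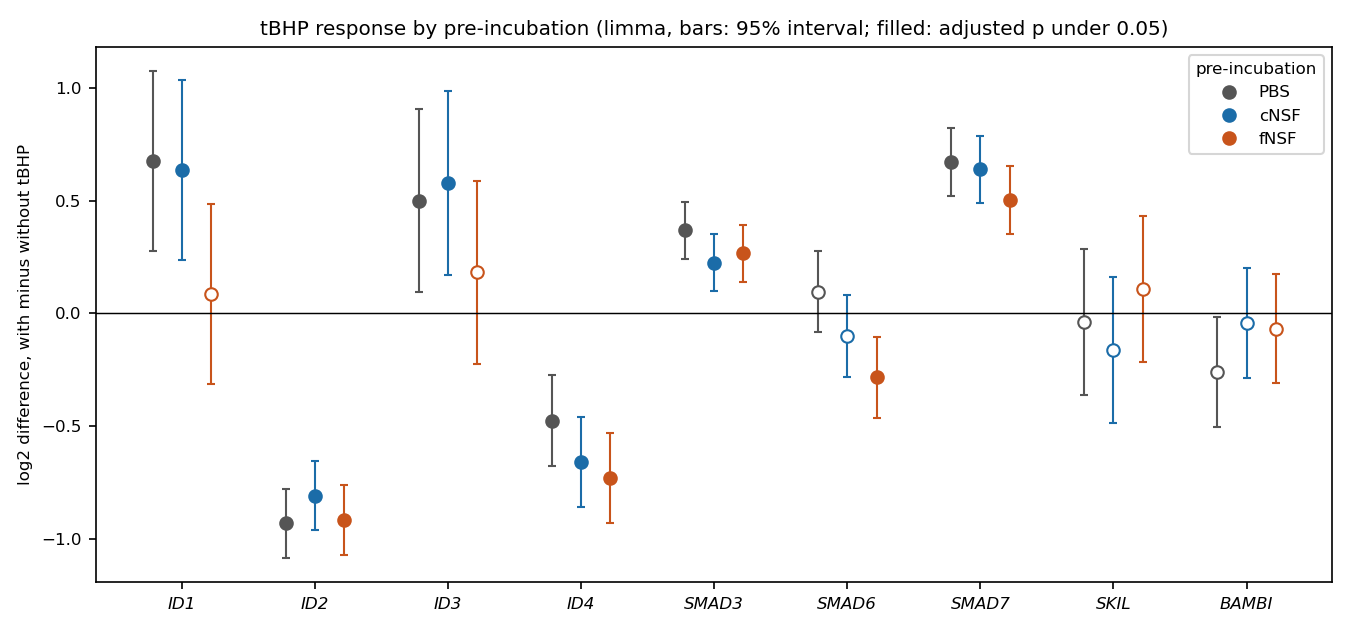
Response to tBHP (y axis, log2 difference with minus without tBHP; bars, 95% interval from limma) of the 9 genes (x axis) in PBS, cNSF-HA and fNSF-HA cells; filled points had an adjusted p under 0.05. ID2 and ID4 lie below 0 and SMAD3 and SMAD7 above it in all 3 pre-incubations, and the intervals of ID1 and ID3 are the widest.

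By pre-incubation, 6 of the 9 passed under PBS (51.1% of all genes tested, 24.2% higher and 26.9% lower), 6 under cNSF-HA (50.8%, 24.0% higher and 26.8% lower) and 5 under fNSF-HA (41.9%, 19.2% higher and 22.7% lower). After removal of the trend these were 8 of 9 (57.5% of all genes), 7 (56.5%) and 6 (55.9%). The 4 that rose under PBS and under cNSF-HA were ID1, ID3, SMAD3 and SMAD7, and the 2 that fell were ID2 and ID4. Under fNSF-HA SMAD3 and SMAD7 rose and ID2, ID4 and SMAD6 fell. The groups did not overlap for 7, 8 and 5 of the 9 genes, against 63.8%, 63.7% and 48.7% of all genes tested. Passing in one pre-incubation and not in another does not show a difference between them, and the differences of responses themselves are given further on.

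SMAD3 (chr15:67063763-67195195, + strand) carries the TGF-beta signal to the nucleus. Its counts were among the least variable of the 9, 2933, 2919 and 2909 under PBS, 2967, 2802 and 2875 under cNSF-HA and 2944, 2931 and 2905 under fNSF-HA without tBHP. With tBHP they were 3816, 3789.8 and 3700.4 under PBS, 3599.7, 3451 and 3073 under cNSF-HA and 3618, 3569.9 and 3371 under fNSF-HA. The lowest library with tBHP, cNSF-HA replicate 3, was still above the highest without it. The rise was 0.37 on the log2 scale (SE 0.061; adjusted p = 7.4e-05) under PBS, 0.22 under cNSF-HA (adjusted p = 0.0051) and 0.27 under fNSF-HA (adjusted p = 0.0019). Under PBS it was 0.23 with the trend removed (adjusted p = 8.4e-06). The deposited table counts whole genes, so the 5 RefSeq start sites of SMAD3 are not separated, and 182 bases of its exons are shared with the antisense gene AC087482.1.

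SMAD7 (chr18:48919853-48952052, - strand) recruits ubiquitin ligases to the TGF-beta receptor and is itself induced by the signal it ends. It had 1661, 1749 and 1720.0 under PBS, 1823, 1658 and 1762 under cNSF-HA and 1753, 1755 and 1818 under fNSF-HA without tBHP. After tBHP it had 2961, 2593 and 2623 under PBS, 2573, 2824 and 2763 under cNSF-HA and 2501, 2334 and 2722 under fNSF-HA. No library overlapped between the conditions. The change was 0.67 on the log2 scale (SE 0.071; adjusted p = 6.1e-07) under PBS, 0.64 under cNSF-HA (adjusted p = 1.2e-06) and 0.50 under fNSF-HA (adjusted p = 2.0e-05). With the trend removed, the rise was 0.39 under PBS, 0.38 under cNSF-HA, 0.42 under fNSF-HA and 0.40 on average (adjusted p = 3.9e-10 for the average). The value under fNSF-HA includes replicate 2 with tBHP, where removal moved the deviation of SMAD7 from -0.18 to 0.23.

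SMAD6 (chr15:66702228-66782848, + strand), the inhibitor that mainly restrains the BMP branch, had 778, 837 and 813 under PBS, 909, 936 and 921 under cNSF-HA and 908, 850.4 and 856 under fNSF-HA without tBHP. With tBHP it had 983, 798 and 826 under PBS, 876, 847 and 857 under cNSF-HA and 678, 668 and 809.8 under fNSF-HA. The fNSF-HA libraries with tBHP lay below all fNSF-HA libraries without it, and under PBS the conditions overlapped. The change was 0.10 under PBS (adjusted p = 0.36), -0.10 under cNSF-HA (adjusted p = 0.34) and -0.28 under fNSF-HA (adjusted p = 0.013). The last call was lost without fNSF-HA replicate 1 without tBHP (-0.25, adjusted p = 0.055) or with tBHP (-0.24, adjusted p = 0.060), and with edgeR on the recovered reads (-0.22, adjusted p = 0.064). The averaged change, -0.10 (adjusted p = 0.095), passed without PBS replicate 1 with tBHP (-0.13, adjusted p = 0.019) or fNSF-HA replicate 3 with tBHP (-0.13, adjusted p = 0.019). SMAD6 is also GC-rich (58.9%). With the trend removed, it was lower in every pre-incubation, with log2 changes of -0.19, -0.34 and -0.36 (adjusted p = 0.011, 7.9e-05 and 4.0e-05), which turned its direction under PBS. The averaged change was then -0.30 (adjusted p = 1.4e-07), and -0.079 on the deposited values without fNSF-HA replicate 2 with tBHP (adjusted p = 0.14). The ratio of SMAD7 to SMAD6 normalized counts, inhibitors of the same kind with like GC content (58.7% and 58.9%), was 1.77 to 2.13 without tBHP and 2.94 to 3.69 with it.

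SKIL (chr3:170357678-170396835, + strand), or SnoN, binds SMAD complexes and blocks their activity on DNA. It had 2285, 2545 and 2653 under PBS, 2250.0, 2330.2 and 2356 under cNSF-HA and 2629.6, 2610.3 and 2494 under fNSF-HA without tBHP. With tBHP it had 2002, 2974 and 2395 under PBS, 2169, 2135 and 1909 under cNSF-HA and 2568, 3836 and 2172 under fNSF-HA. The highest of these, fNSF-HA replicate 2, stood well above its group, and both PBS and fNSF-HA libraries overlapped between the conditions. The change was -0.038, -0.16 and 0.11 under PBS, cNSF-HA and fNSF-HA (adjusted p = 0.86, 0.40 and 0.61), and with edgeR it was 0.041 under PBS. The SKIL transcript, at 33.4% GC, is lower than all but 0.359% of the genes tested, and it deviated by 0.67 in fNSF-HA replicate 2 with tBHP. Once the trend was removed, SKIL was higher after tBHP in all 3 pre-incubations, by 0.56, 0.45 and 0.46 (adjusted p = 1.5e-09, 5.9e-08 and 4.4e-08). The SD of SKIL within groups after tBHP was 0.30 on the log2 scale as deposited and 0.060 with the trend removed, against 0.071 without tBHP. The direction of SKIL after tBHP thus depends on this step, and which value is nearer to the RNA in the cells was not tested.

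BAMBI (chr10:28677342-28682939, + strand), a receptor-like protein without a kinase, was the least abundant, with 161, 167 and 198 under PBS, 161, 176 and 183 under cNSF-HA and 159, 178 and 189 under fNSF-HA before tBHP. After tBHP it had 138, 144 and 155 under PBS, 156, 156 and 195 under cNSF-HA and 169, 170.2 and 162 under fNSF-HA. Only under PBS did the conditions not overlap, and no change passed the test on the deposited values without a block (-0.26, -0.042 and -0.067 under PBS, cNSF-HA and fNSF-HA, adjusted p = 0.068, 0.78 and 0.68). With a replicate block the change under PBS passed (-0.26, adjusted p = 0.040). Its log2 change with the trend removed was -0.42 under PBS (adjusted p = 0.0023) and -0.30 on average (adjusted p = 2.1e-04). Under cNSF-HA and fNSF-HA it was then -0.24 and -0.23 and did not pass (adjusted p = 0.060 and 0.079). The averaged change, -0.12 with all libraries (adjusted p = 0.11), was -0.16 without cNSF-HA replicate 3 with tBHP (adjusted p = 0.031).

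**Figure D3:**
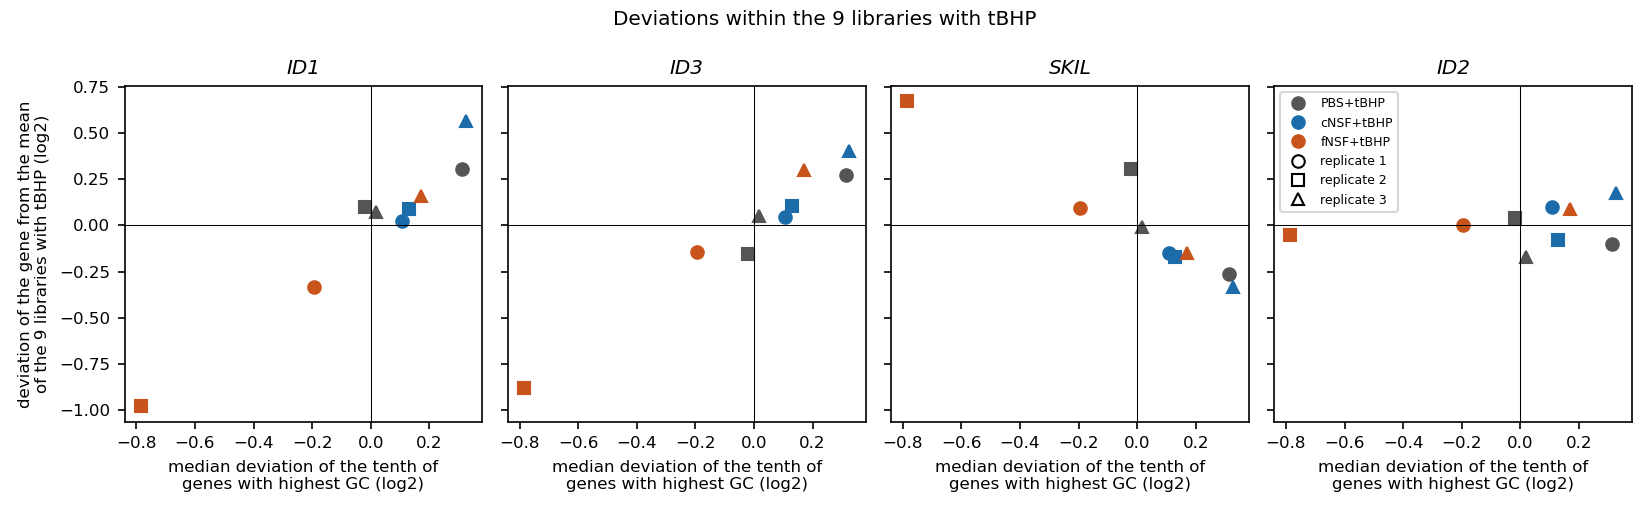
Deviation of ID1, ID3, SKIL and ID2 (y axis, log2) from the average tBHP library, against the median deviation of the tenth of genes highest in GC (x axis, log2); color, pre-incubation; symbol, replicate. In fNSF-HA replicate 2, at -0.78 on the x axis, ID1 and ID3 are lowest and SKIL is highest, whereas ID2 lies near 0.

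The spread within groups grew after tBHP for 8 of the 9 genes, BAMBI being the exception (SD 0.13 without and 0.12 with tBHP on the log2 scale). For ID1 the SD went from 0.078 to 0.38 and for ID3 from 0.084 to 0.38, against a median of 0.076 and 0.21 over all genes tested. For SMAD3 it was 0.025 and then 0.076. With the trend removed, the SD after tBHP was 0.18 for ID1, 0.21 for ID3 and 0.12 for the median gene.

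The second question is whether the HA pre-incubation changed these genes. Before tBHP the groups were close. None of the 9 passed limma in cNSF-HA against PBS (log2 differences -0.11 to 0.19), in fNSF-HA against PBS (0.0024 to 0.11) or in cNSF-HA against fNSF-HA (-0.16 to 0.082), as 0% of all genes tested did. At an unadjusted p under 0.05 there were 1, 0 and 0 of the 9, beside 126, 109 and 206 of all genes tested, and edgeR and DESeq2 called 0 of the 9 in each. The one was SMAD6, higher in all 3 cNSF-HA libraries than in any PBS library (0.19, 95% interval 0.0086 to 0.37, adjusted p = 0.99996), and with ID1 it was 1 of the 2 genes of the 9 whose groups did not overlap there, against 15.2% of all genes. SKIL was lower in all 3 cNSF-HA libraries than in any fNSF-HA library, with a log2 difference of -0.16 (95% interval -0.48 to 0.17; adjusted p = 0.99987), and with ID2 and SMAD6 it was 1 of the 3 whose groups did not overlap, against 25.0% of all genes. A fit of these 6 libraries alone called 980 of all genes tested, SKIL among them (adjusted p = 0.0044), and with the trend removed the difference was -0.021. In fNSF-HA against PBS, 3 of the 9 and 14.0% of all genes did not overlap. Both comparisons with PBS share the PBS libraries.

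After tBHP the HA groups lay further apart, but again none of the 9 passed in cNSF-HA against fNSF-HA, as 0% of all genes tested did. At an unadjusted p under 0.05 there were 4 of the 9 and 4412 of all genes tested (32.2%). Of the 9, edgeR called 0 and DESeq2 called 1, SMAD6 (adjusted p = 0.049), along with 793 of all genes tested. As cNSF-HA minus fNSF-HA, the log2 difference was 0.61 (95% interval 0.21 to 1.01; adjusted p = 0.098) for ID1 and 0.43 (95% interval 0.020 to 0.83; adjusted p = 0.14) for ID3. It was 0.26 (95% interval 0.084 to 0.44; adjusted p = 0.098) for SMAD6 and -0.42 (95% interval -0.75 to -0.10; adjusted p = 0.099) for SKIL. SMAD6 was higher and SKIL lower in every cNSF-HA library than in any fNSF-HA library, and these were the 2 genes of the 9 whose groups did not overlap, against 13.4% of all genes tested.

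The other 5 genes differed less. The difference was 0.11 (95% interval -0.038 to 0.26; adjusted p = 0.27) for SMAD7, 0.073 (95% interval -0.13 to 0.27; adjusted p = 0.61) for ID4 and 0.053 (95% interval -0.10 to 0.21; adjusted p = 0.62) for ID2. For SMAD3 it was -0.063 (95% interval -0.19 to 0.064; adjusted p = 0.47) and for BAMBI 0.010 (95% interval -0.23 to 0.25; adjusted p = 0.96). A p that misses the threshold does not show that the preparations act alike.

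The differences of ID1, ID3, SMAD6 and SKIL depended on which fNSF-HA library was kept. Without fNSF-HA replicate 2 with tBHP, ID1 differed by 0.31, ID3 by 0.11, SMAD6 by 0.21 and SKIL by -0.19 (adjusted p 0.57 to 0.77). Without fNSF-HA replicate 3 with tBHP, the same 4 genes passed, at 0.88, 0.70, 0.35 and -0.60 (adjusted p = 0.0012, 0.0034, 0.0041 and 0.0041), together with 5586 of all genes tested. With the trend removed the differences were 0.31, 0.17, 0.048 and -0.028, and none of the 9 passed.

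**Figure D4:**
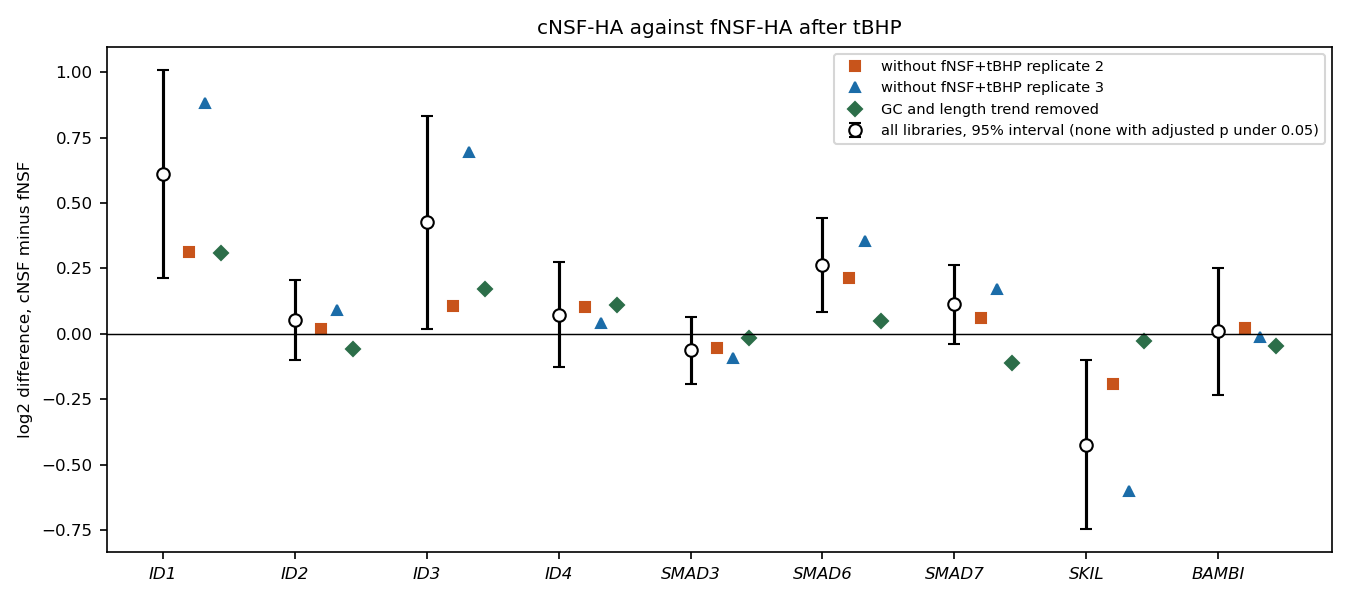
Contrast of the HA preparations with tBHP (y axis, log2, cNSF-HA minus fNSF-HA) for the 9 genes (x axis), from all libraries (open circles, bars are 95% intervals from limma), without fNSF-HA replicate 2 or 3, and with the GC and length trend removed. ID1 and ID3 move from 0.31 and 0.11 to 0.88 and 0.70 with the library left out, and SKIL comes to -0.028 with the trend removed.

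Against PBS after tBHP, none of the 9 passed limma under cNSF-HA (differences -0.23 to 0.21, 0% of all genes) or under fNSF-HA (-0.54 to 0.20, 0.139% of all genes). At an unadjusted p under 0.05 there were 1 and 2 of the 9, beside 1183 and 3102 of all genes tested, and edgeR and DESeq2 called 0 of the 9 in both. The groups did not overlap for 2 and 3 of the 9, against 9.57% and 12.0% of all genes. Under cNSF-HA the 1 with an unadjusted p under 0.05 was SMAD3 (-0.16, 95% interval -0.29 to -0.035, adjusted p = 0.55), lower than in any PBS library. With the trend removed it was -0.068 (adjusted p = 0.39). Under fNSF-HA the 2 were ID1 (-0.54, adjusted p = 0.14) and SMAD6 (-0.27, adjusted p = 0.12). With the trend removed ID1 and SMAD6 were -0.38 and -0.048 (adjusted p = 0.062 and 0.78), and ID1 passed with the trend removed and a replicate block together (adjusted p = 0.048). Without fNSF-HA replicate 3 with tBHP, ID1, SMAD6 and ID3 passed (-0.81, -0.36 and -0.57, adjusted p = 0.0025, 0.0060 and 0.015), together with 4024 of all genes tested, and without replicate 2 ID1 differed by -0.24 (adjusted p = 0.62). The difference between the tBHP responses was tested as well. None of the 9 passed limma, edgeR or DESeq2 in any pair of pre-incubations, as 0% of all genes tested did in limma. At an unadjusted p under 0.05 there were 0 of the 9 for cNSF-HA minus PBS, 2 for fNSF-HA minus PBS and 0 for cNSF-HA minus fNSF-HA, beside 555, 942 and 533 of all genes tested. The 2 were ID1 (-0.59) and SMAD6 (-0.38; adjusted p = 0.67 for both), and with the trend removed -0.45 and -0.17 (adjusted p = 0.55 and 0.76). For cNSF-HA minus fNSF-HA the value of ID1 was 0.55 (adjusted p = 0.71), and 0.30 with the trend removed (adjusted p = 0.79). These differences for ID1 ran from -0.29 without fNSF-HA replicate 2 with tBHP to -0.86 without replicate 3 against PBS, and from 0.25 to 0.82 without the same libraries against cNSF-HA.

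The rest of the pathway was read from hand-written lists of 62 genes, of which 56 were tested. Averaged over the pre-incubations, 19 rose, 19 fell and 18 did not pass after tBHP, near the background above, and their median log2 change was 0.018. All 6 ligands tested passed, 4 higher and 2 lower. BMP6 rose by 2.88 on the log2 scale, from a mean of 29.5 to 219 normalized counts, and TGFB3 by 1.5, while TGFB2 (-1.30) and BMP4 (-0.94) fell. Of 12 receptors 4 rose and 6 fell, with TGFBR3, the TGF-beta co-receptor betaglycan, at -1.15 and ACVR1, a type I receptor for BMPs, at 1.00. TGFBR2 (-0.33) and ACVR2A (-0.32) also fell. Among the 5 other SMADs only the BMP-activated SMAD5 passed (-0.36), and SMAD4, the common partner, was at 0.028.

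Inhibitors and co-repressors beyond the 9 moved both ways, 7 higher and 4 lower of 13. Noggin (NOG), a secreted BMP antagonist, fell by 1.42 and TGIF2 by 1.03, and the related co-repressor TGIF1 rose by 1.12, as did PMEPA1, which sequesters receptor-activated SMADs (0.78). Among 5 bHLH factors of the network that ID proteins act on, TWIST1 (-0.94) and TCF4 (-0.41) fell and none rose. TGF-beta target genes gave 2 higher and 3 lower of 9: CTGF (-0.83) and IGFBP3 (-0.65), which are secreted, and ACTA2 (-0.43), the smooth muscle actin of myofibroblasts, fell, and TSC22D1 rose (0.72). Of 6 BMP targets tested, MSX2 (0.53) and RUNX2 (0.36) rose and ATOH8 (-0.28) fell. The adjusted p was 0.0087 or less for every gene named so far from these lists as risen or fallen. With the GC and length trend removed, 33 of the 56 genes stayed higher, lower or short of the threshold as before. In all, 24 then rose, 21 fell and 11 did not pass, where 72.9% of the 12532 genes with a known GC content and length passed. Of the genes named, ACVR2A (0.024), SMAD5 (0.059) and TCF4 (-0.026) no longer passed (adjusted p = 0.79, 0.086 and 0.42), SMAD4 passed (0.30, adjusted p = 2.7e-06), and the others kept their call and direction. By list, this setting gave 5 higher and 3 lower of the 12 receptors, 3 higher and 0 lower of the 5 other SMADs (SMAD2 0.45, SMAD1 0.34 and SMAD4), 1 higher and 3 lower of the 5 bHLH factors, 3 higher and 6 lower of the 9 TGF-beta targets, and 2 higher and 2 lower of the 6 BMP targets. The 6 ligands stayed at 4 higher and 2 lower, and the 13 inhibitors and co-repressors gave 6 higher and 5 lower. Among the latter, SKI no longer passed (0.046, adjusted p = 0.085) and FSTL3 was newly lower (-0.28, adjusted p = 1.1e-10). The newly called TGF-beta targets were COL1A1 (-0.21), TAGLN (-0.19) and LTBP2 (-0.22), lower, and FN1 (0.29), higher. The receptors TGFBR1 and BMPR2 were called in opposite directions, lower on the deposited values (-0.22 and -0.27) and higher with the trend removed (0.12 and 0.16). SKI and the genes newly called or turned in this setting were picked out after their values were seen. In cNSF-HA against fNSF-HA with tBHP, 0 of the 56 passed limma.

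**Figure D5:**
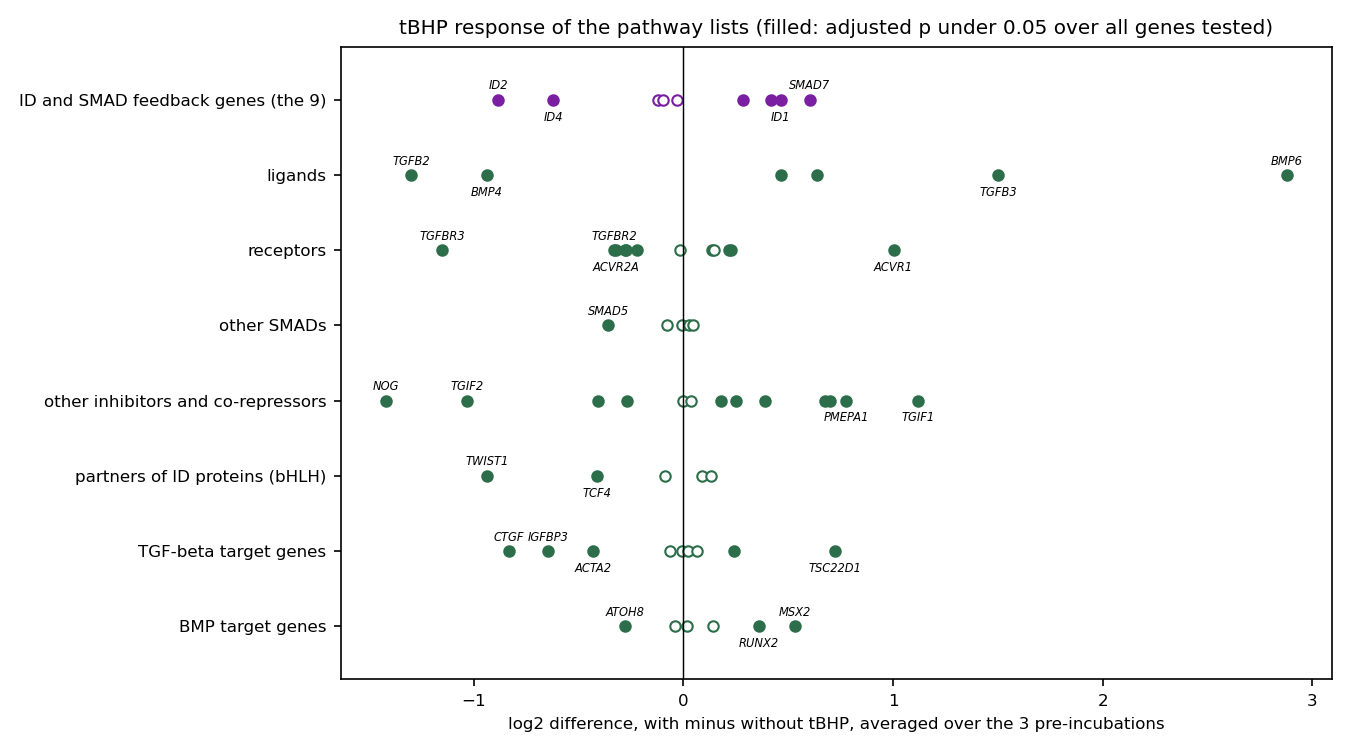
Averaged tBHP response (x axis, log2) of the 9 genes and of the 56 tested genes of the pathway lists (rows), each point 1 gene and filled where the adjusted p was under 0.05; up to 4 genes a row are named. BMP6, at 2.88, lies furthest to the right and NOG, at -1.42, furthest to the left.

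Finally, the genes whose log2 values ran most like each of the 9 over the 18 libraries were listed, among those with a mean of at least 100 normalized counts. The libraries share the tBHP contrast and the GC trend, so likeness describes these libraries only. For ID1 they were MAP2K2, GPX4 and PRRX2 (Pearson r 0.99 for each), all of higher GC content than ID1, and for ID3 HCFC1R1, SDF4 and COASY (0.98). ID1 and ID3 themselves had an r of 0.96. For ID2 they were PRSS23, NTF3 and MB21D2 (0.99), and for ID4 DIRAS3, GCNT1 and MCCC1 (0.96 to 0.97). SMAD7 was closest to BAG3, CKAP4 and MKNK2 (0.99) and SMAD3 to NID2, LARP1 and SSH1 (0.98 to 0.99). For SKIL they were XIAP, CALU and CCNT2 (0.95 to 0.96), all of low GC content. SMAD6 (HS3ST3A1, NGRN and CHST12, 0.85 to 0.88) and BAMBI (TFB2M, RDH14 and MAGOH, 0.80 to 0.83) were less like any other gene.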

How the data were processed

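RNA from IMR90 cells was measured in 18 libraries, 3 per pre-incubation and tBHP condition as the labels give them. Per the labels, poly(A) RNA was made into libraries with the TruSeq RNA V2 kit, which keeps no strand, and sequenced as single-end reads of 100 nt. The submitters' processing notes name Trimmomatic 0.32, STAR 2.5.2b, featureCounts (Subread 1.5.0-p3), DESeq2 and GRCh38.p7. The annotation is not given in the sources used here. The deposited signal is, per gene, the reads divided by the DESeq2 size factor of the library, and all values were whole multiples of 1 read (tolerance 0.01), so reads could be recovered. The deposited table also holds a p-value, a q-value and a rank of the authors per gene, for a comparison that is not named, and these were not used.

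A pseudocount of 1 was added before log2, so changes of low genes are understated. Of 56269 genes, 31441 had a read and 13686 had a mean of at least 10 and entered the fit with limma 3.58.1 (R 4.3.3, mean-variance trend, 1 coefficient per group over all 18 libraries, two-sided, Benjamini-Hochberg adjustment over all genes tested, threshold 0.05). Differences of responses were tested as interactions. No identical replicate pairs were found. Chi-square per degree of freedom between replicates was 1.45 to 2.55 without tBHP and 2.72 to 64.8 with it, so with tBHP the spread between libraries, more than the sampling of reads, sets the precision.

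Alternatives were other pseudocounts and filters, rescaling, quantile normalization, a replicate block, removal of a GC and length trend (natural splines, 5 degrees of freedom, GENCODE release 29, 91.6% of genes tested), edgeR 4.0.16, DESeq2 1.42.0, fits of the compared groups alone, and leaving out 1 library at a time. The scripts were tested on simulated data. The 9 genes and the lists were chosen with earlier results of these data known. The text names all 9 genes, at most 4 genes past the threshold per list by size of the averaged change, and the 3 genes most like each of the 9. SMAD4 and the list genes whose call changed with the trend removed were named after their values were seen. A gene of the pathway lists is not reported here and is left out of their counts. Promoter sequences are from RefSeq and were found for 9 of the 9 genes.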

Additional observations from a re-analysis of the deposited data

How the results depend on the processing

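On average over the pre-incubations 9 of the 9 genes passed with the trend removed, against 6 on the deposited values with all libraries, which is 1.5 times as many. The number that passed held within 1.5 times in each comparison and setting except these. In cNSF-HA against fNSF-HA it rose from 0 to 1 with DESeq2 after tBHP (SMAD6) and from 0 to 1 with only the compared groups before tBHP (SKIL). In fNSF-HA against PBS after tBHP it rose from 0 to 1 with the trend removed and the replicate block (ID1, lower). With 1 library left out, it ran from 0 to 3 in fNSF-HA against PBS and from 0 to 4 in cNSF-HA against fNSF-HA after tBHP, both highest without fNSF-HA replicate 3. In all 30 settings the averaged responses of ID1, ID2, ID3, ID4, SMAD3 and SMAD7 passed in 1 direction, and SMAD6, SKIL and BAMBI passed in 4, 2 and 3. Of the single-gene values under other settings, 581 kept direction and side of the threshold, 15 passed newly, 7 lost the call and 21 reversed. The edgeR scaling raised the median tBHP response of all genes by 0.068.

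With the trend removed, with or without the block, SMAD6 under PBS turned to -0.19, SKIL to 0.56 under PBS, 0.45 under cNSF-HA and 0.49 on average, and ID1 under fNSF-HA to -0.081. In cNSF-HA against fNSF-HA after tBHP, ID2 turned to -0.059, SMAD7 to -0.11 and BAMBI to -0.047 (-7.2e-05 with quantile normalization). With edgeR, SKIL was 0.041 under PBS and 0.050 on average and BAMBI 0.024 under cNSF-HA (0.018 with quantile normalization). With 1 library left out, reversals lay in these ranges: SKIL -0.18 to 0.10 under PBS, -0.13 to 0.28 under fNSF-HA and -0.11 to 0.029 on average, BAMBI -0.15 to 0.012 under cNSF-HA, ID1 -0.19 to 0.38 and ID3 -0.089 to 0.50 under fNSF-HA, and, in cNSF-HA against fNSF-HA after tBHP, ID2 -0.0023 to 0.13, SMAD3 -0.11 to 0.0026 and BAMBI -0.097 to 0.064. The cause was not tested.

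The replicate numbers were not taken to pair the libraries, since not every same-numbered pair correlated above 0.1 (correlation of deviations -0.32 to 0.65, median 0.081, 19 of 45 pairs above 0.1). Differently numbered pairs had a median of -0.063, with 20 of 90 above 0.1. With the replicate block, 7, 6, 5 and 6 of the 9 passed in the PBS, cNSF-HA, fNSF-HA and averaged responses, against 6, 6, 5 and 6 without it. The added gene was BAMBI under PBS (-0.26, adjusted p = 0.040), and the block alone changed no other call among the 9.

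Counts over all genes moved more. In fNSF-HA against PBS after tBHP, 19 passed with limma, 61 with the block, 36 with edgeR or the trend removed, 58 with both trend and block, 451 with DESeq2, 30 at a minimum mean of 50, 3 without a filter, 0 with only the compared groups, and 0 to 4024 with 1 library left out. In cNSF-HA against fNSF-HA after tBHP, 0 passed with limma and 793 with DESeq2, and up to 5586 with 1 library left out, and before tBHP 980 passed with only the compared groups.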
